A study of Mus musculus with 4 samples.

Results

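Radial glia are the stem cells of the embryonic forebrain, and 7 genes for their filaments, transport proteins, apical membrane and surrounding matrix were followed in 4 RNA-seq libraries of Tcf20 mutant and control mouse embryos. The genes were Nes, Vim, Fabp7, Slc1a3, Prom1, Tnc and Ptprz1, chosen by name; all 7 were found among the 22084 genes of the deposited tables and all 7 passed the filter on low counts. All embryos were of strain B6D2F2 at embryonic stage E13.5. KO26F and KO23M were labelled TCF20-/- and are called knockout (KO) libraries. WT25F was labelled TCF20+/+. The labels of WT22M conflict, with a wild-type title and the genotype TCF20+/-, so WT25F and WT22M are together called carriers, since each has at least 1 intact allele under either label. The tissue labels differ too, with telencephalon in the titles and cerebral cortex in the dissection protocol. Neither the making of the allele nor the litters of the embryos are stated in the sources used here, so each p-value reflects only the spread among these 4 libraries, which may be technical.

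In the embryonic forebrain, radial glia line the ventricle with an apical surface and send a long basal fibre to the meninges, along which newborn neurons migrate. Their fibre is built on nestin and vimentin filaments, and their cytoplasm and membrane carry the fatty acid binding protein BLBP (Fabp7) and the glutamate transporter GLAST (Slc1a3), which later also mark astrocytes. Prominin-1 sits on protrusions of the apical membrane, while tenascin-C and the receptor phosphatase encoded by Ptprz1 belong to the matrix and surface around the cells.

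Depth was even, from 17791641 to 18509743 counts per library, and levels are given in CPM (counts scaled to the library total), in which 3 counts, the most that an observed 0 leaves possible, come to between 0.162 and 0.169. The counting intervals quoted are at the 95% level and cover counting error only. Tcf20 itself stood at 98.6 CPM in KO26F and 104 in KO23M, against 118 in WT25F and 111 in WT22M; counts over the whole gene include any part that was not deleted, so this does not check the genotype labels. The forebrain factors Emx1 and Lhx2 were between 107 (Emx1, WT25F) and 414 CPM (Lhx2, KO26F) in every library. Since the tissue was sequenced in bulk, fewer radial glia and less RNA per cell cannot be told apart.

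Together the 7 genes took up 1722 CPM in KO26F and 1803 in KO23M, against 1768 in WT25F and 1845 in WT22M, so the KO and carrier sums overlapped. Vim supplied the largest share of that sum in all 4 libraries, 40.0% in KO26F and 42.7% in KO23M against 40.7% in WT25F and 39.9% in WT22M. Per kilobase of exon, which allows levels of different genes to be compared, Fabp7 came first at a mean of 298 CPM per kb in KO libraries and 314 in carriers. Vim followed at 154 in both, and Nes at 56.1 and 56.6. The remaining genes were far lower and closer to each other: Slc1a3 had means of 10.04 CPM per kb in KO libraries and 11.1 in carriers, Tnc 7.93 and 10.05, Ptprz1 8.61 and 8.72, and Prom1 4.18 and 3.72. Fabp7, Vim and Nes kept this order in each library with no overlap, and Prom1 was last in each. Slc1a3, Tnc and Ptprz1 changed places: Tnc was above Slc1a3 in WT22M, at 11.03 and 10.3 CPM per kb.

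**Figure D1:**
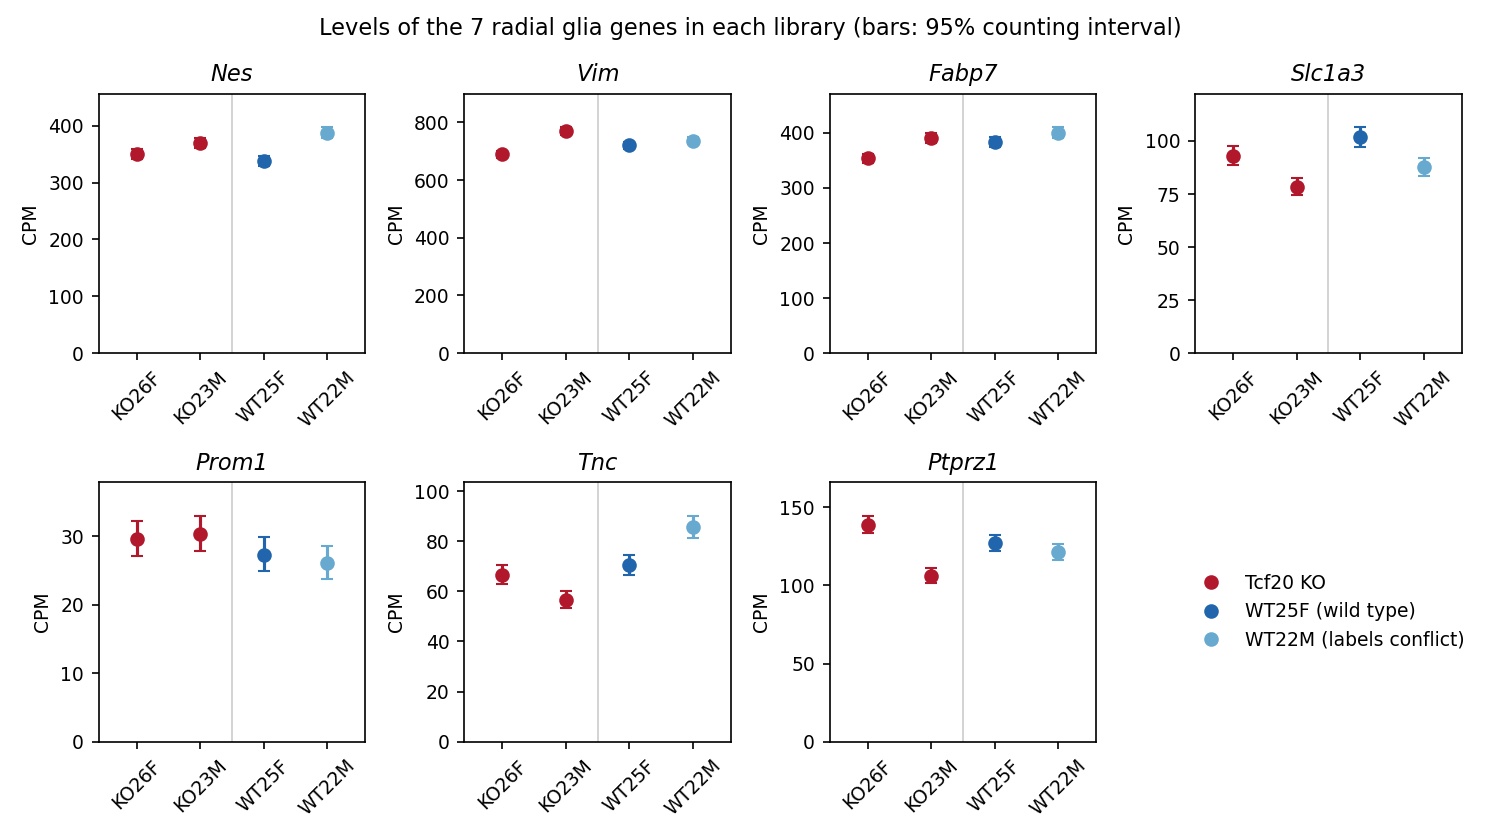
Level of each of the 7 radial glia genes in CPM (linear axis from 0) in KO26F, KO23M, WT25F and WT22M, with bars for the 95% counting interval. The KO and carrier points are separate for Prom1 (29.6 and 30.4 against 27.3 and 26.1 CPM) and Tnc (66.6 and 56.7 against 70.4 and 85.7 CPM), and interleave for the other genes.

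For the filament genes the KO and carrier libraries overlapped, and the intervals leave room for a change in either direction. Nes (ENSMUSG00000004891, GRCm38 chromosome 3, 87971078 to 87980451, plus strand) encodes nestin, the filament protein by which neural progenitors are most often recognised. It stood at 351 CPM in KO26F and 369.7 in KO23M, against 338 in WT25F and 388 in WT22M. Both KO libraries lay between the carriers. The mean was 360.2 ± 13.4 CPM in KO libraries and 363 ± 35.3 in carriers (SD, n = 2 each), with a log2 fold change of -0.015 (SE 0.11, 95% interval -0.23 to 0.20).

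Vim (ENSMUSG00000026728, chromosome 2, 13573927 to 13582826, plus strand) encodes vimentin, the partner with which nestin assembles, and is also expressed by mesenchymal and endothelial cells. Its level was 689 CPM in KO26F and 769.7 in KO23M, against 720.0 in WT25F and 736 in WT22M. Here the carriers lay between the KO libraries. KO libraries averaged 729 ± 57.1 CPM and carriers 728 ± 11.4 (SD, n = 2 each), and the fitted log2 fold change was 0.0005 (SE 0.10, 95% interval -0.21 to 0.21). The ratio of Nes to Vim was 0.509 in KO26F and 0.480 in KO23M, against 0.470 in WT25F and 0.527 in WT22M, again overlapping.

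The genes for lipid and glutamate handling leaned to the lower side without separating. Fabp7 (ENSMUSG00000019874, chromosome 10, 57784881 to 57788450, plus strand), whose product carries long-chain fatty acids, had 354 CPM in KO26F and 391 in KO23M, against 383 in WT25F and 401 in WT22M. KO26F was below both carriers and KO23M was between them. The mean was 373 ± 26.7 CPM in KO libraries and 392 ± 12.1 in carriers (SD, n = 2 each), a log2 fold change of -0.076 (SE 0.10, 95% interval -0.29 to 0.14).

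Slc1a3 (ENSMUSG00000005360, chromosome 15, 8634124 to 8710764, minus strand) encodes the sodium-driven transporter that takes up glutamate. It stood at 92.9 CPM in KO26F and 78.4 in KO23M, against 102 in WT25F and 87.6 in WT22M. Each KO library was below the carrier with the same last letter in its title, yet KO26F was above WT22M, so the groups overlapped. KO libraries averaged 85.7 ± 10.2 CPM and carriers 94.6 ± 9.91 (SD, n = 2 each), and the log2 fold change was -0.15 (SE 0.11, 95% interval -0.37 to 0.08). The interval leaves room for a decrease to 0.773-fold and for an increase to 1.05-fold.

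Prom1 and Tnc were the genes whose KO and carrier libraries did not overlap, and their promoter windows are printed for that reason. Prom1 (ENSMUSG00000029086, chromosome 5, 43993620 to 44102032, minus strand) encodes prominin-1, also called CD133, a glycoprotein of cholesterol-rich membrane protrusions. It had 29.6 CPM in KO26F and 30.4 in KO23M, against 27.3 in WT25F and 26.1 in WT22M. Both KO libraries were above both carriers, by less than the width of the counting intervals, which ran from 27.2 to 32.2 CPM in KO26F and from 24.9 to 29.8 in WT25F. The mean was 30.0 ± 0.522 CPM in KO libraries and 26.7 ± 0.867 in carriers (SD, n = 2 each), with a log2 fold change of 0.17 (SE 0.13, 95% interval -0.10 to 0.43, edgeR adjusted p = 0.9997). Gm16401, an antisense transcript over the 5′ end of Prom1 (44100442 to 44102515), had 24 counts in KO26F and 8 in KO23M against 14 in WT25F and 18 in WT22M, beside 464 to 562 counts for Prom1. The sources used here do not state whether reads were assigned by strand, so reads of Prom1 and of this transcript may not be separated.

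Tnc (ENSMUSG00000028364, chromosome 4, 63959785 to 64047015, minus strand) encodes tenascin-C, a large matrix glycoprotein bound by integrins and by the Ptprz1 product, and it varied the most of the 7 genes. It stood at 66.6 CPM in KO26F and 56.7 in KO23M, against 70.4 in WT25F and 85.7 in WT22M. Both KO libraries were below both carriers; KO26F and WT25F were the closest, with overlapping counting intervals (62.9 to 70.5 CPM and 66.6 to 74.4), and KO23M and WT22M were the extremes, 1.51-fold apart. KO libraries averaged 61.7 ± 6.97 CPM and carriers 78.1 ± 10.8 (SD, n = 2 each). The log2 fold change was -0.35 (SE 0.12, 95% interval -0.59 to -0.10), or 21.4% lower, and did not pass the threshold over all genes (edgeR quasi-likelihood test, unadjusted p = 0.00808, adjusted p = 0.9997). The ratio of Tnc to Nes also separated the groups, at 0.190 in KO26F and 0.153 in KO23M against 0.208 in WT25F and 0.221 in WT22M. The overlapping transcript 8030451A03Rik on the opposite strand (63979854 to 64149924) had 1 to 11 counts. As for Prom1, reads from the opposite strand may not be separated from those of Tnc.

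The RefSeq promoter windows of both genes (GRCm38.p6, 250 bases before to 50 after an annotated start, written 5′ to 3′ on the minus strand) are chr4:64046966-64047265 for Tnc and chr5:44101687-44101986 for Prom1, whose RefSeq start lies 296 bases inside the gene as the files place it. Capitals mark E-boxes, the CANNTG motif recognised by basic helix-loop-helix factors, searched on both strands.
Tnc: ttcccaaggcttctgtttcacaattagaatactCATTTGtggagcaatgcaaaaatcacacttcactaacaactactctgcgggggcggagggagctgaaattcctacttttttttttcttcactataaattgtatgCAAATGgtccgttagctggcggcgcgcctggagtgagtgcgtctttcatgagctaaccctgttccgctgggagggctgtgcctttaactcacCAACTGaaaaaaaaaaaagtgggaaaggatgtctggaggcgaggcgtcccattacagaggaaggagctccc
Prom1: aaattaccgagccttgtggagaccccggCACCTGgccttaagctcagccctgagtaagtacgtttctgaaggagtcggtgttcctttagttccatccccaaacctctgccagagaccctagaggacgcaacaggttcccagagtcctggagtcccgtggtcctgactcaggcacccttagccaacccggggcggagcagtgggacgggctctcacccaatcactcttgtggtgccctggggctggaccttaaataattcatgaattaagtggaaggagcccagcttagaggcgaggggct
The Tnc window holds 3 E-boxes and also a TATAAA motif, left in lower case, while the Prom1 window holds 1 E-box, which reads CAGGTG on the opposite strand. Of 32851 RefSeq mouse promoter windows of 300 bases, 72.3% hold CANNTG (median 1 match), 20.2% CAGGTG and 13.6% TATAAA on either strand; CAGGTG is a case of CANNTG. A second Tnc start has 2 E-boxes and the same TATAAA, and a second Prom1 start has none of these. Among the windows of the other genes, Fabp7 has 2 E-boxes, Slc1a3 has 1 together with a TATAAA motif, Vim has a TATAAA motif only, and Nes and Ptprz1 have none of the 3 motifs. These matches describe letters in the windows and were not tied to the levels.

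Ptprz1 (ENSMUSG00000068748, chromosome 6, 22875502 to 23052916, plus strand) encodes a receptor tyrosine phosphatase whose chondroitin sulphate-bearing outer part binds tenascins and pleiotrophin. Its level was 139 CPM in KO26F and 106 in KO23M, against 127 in WT25F and 121 in WT22M. The KO libraries were the highest and the lowest of the 4, with the carriers close together between them. KO libraries averaged 123 ± 23.2 CPM and carriers 124 ± 4.12 (SD, n = 2 each), and the log2 fold change was -0.024 (SE 0.11, 95% interval -0.25 to 0.21). The ratio of Tnc to Ptprz1 was 0.479 in KO26F and 0.534 in KO23M, against 0.554 in WT25F and 0.707 in WT22M, so this ratio was lower in both KO libraries, though KO23M and WT25F were close. Tnc is its numerator, so the ratio is not separate from the Tnc levels.

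Over the group, 0 of 7 genes passed the edgeR threshold (Benjamini-Hochberg adjusted p under 0.05) between KO libraries and carriers, where 10 of 16252 genes, 0.0615%, were called. DESeq2 called 0 of 7 as well, where 11 of 16252 genes were called. At an unadjusted p under 0.05 there was 1 gene, Tnc, with either tool. Of all genes this held for 464 or 2.86% with edgeR and for 185 of 16252 with DESeq2. The 7 unadjusted edgeR p-values ran from 0.00808 to 0.996. Groups did not overlap for 2 of 7 genes, against 27.0% of all genes tested (13.6% higher and 13.4% lower), so this count is near the background. Prom1 and Vim were on the higher side and 5 genes on the lower side, with a median log2 fold change of -0.024 against 0.0020 for all genes. The median size of the change, without its sign, was 0.076. It was 0.094 for all genes tested and 0.053 for the 6968 genes at or above the level of the lowest of the 7. Across all 4 libraries Nes, Vim and Fabp7 spanned 0.20, 0.16 and 0.18 on the log2 scale, less than the median of 0.2013 for those 6968 genes. Prom1 spanned 0.22, Slc1a3 0.37, Ptprz1 0.39 and Tnc 0.60.

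The number of genes called between KO libraries and carriers depended on the libraries entered. It was 48 without KO26F, 65 without KO23M, 100 without WT25F, 59 without WT22M and 123 with the last letter of the title (F or M, 1 KO and 1 carrier library each) as a block. With that block Tnc was the member that passed: its log2 fold change was -0.34 (SE 0.08, 95% interval -0.50 to -0.18, edgeR adjusted p = 0.0101), where 123 genes or 0.757% were called and 62 or 0.381% were called lower. The block leaves 1 residual degree of freedom, so the SE of Tnc draws mainly on a spread shared across all genes. It does not carry the full disagreement of the pairs for Tnc itself. Their log2 ratios were -0.08 for KO26F over WT25F and -0.60 for KO23M over WT22M. For the other 6 genes the adjusted p with the block was at least 0.745 (Slc1a3, log2 fold change -0.15). Leaving out 1 library at a time, the log2 fold change of Tnc ranged from -0.50 (without WT25F) to -0.18 (without WT22M) and that of Prom1 from 0.13 to 0.20. That of Slc1a3 was -0.25 without KO26F, -0.24 without WT22M, -0.06 without WT25F and -0.05 without KO23M.

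**Figure D2:**
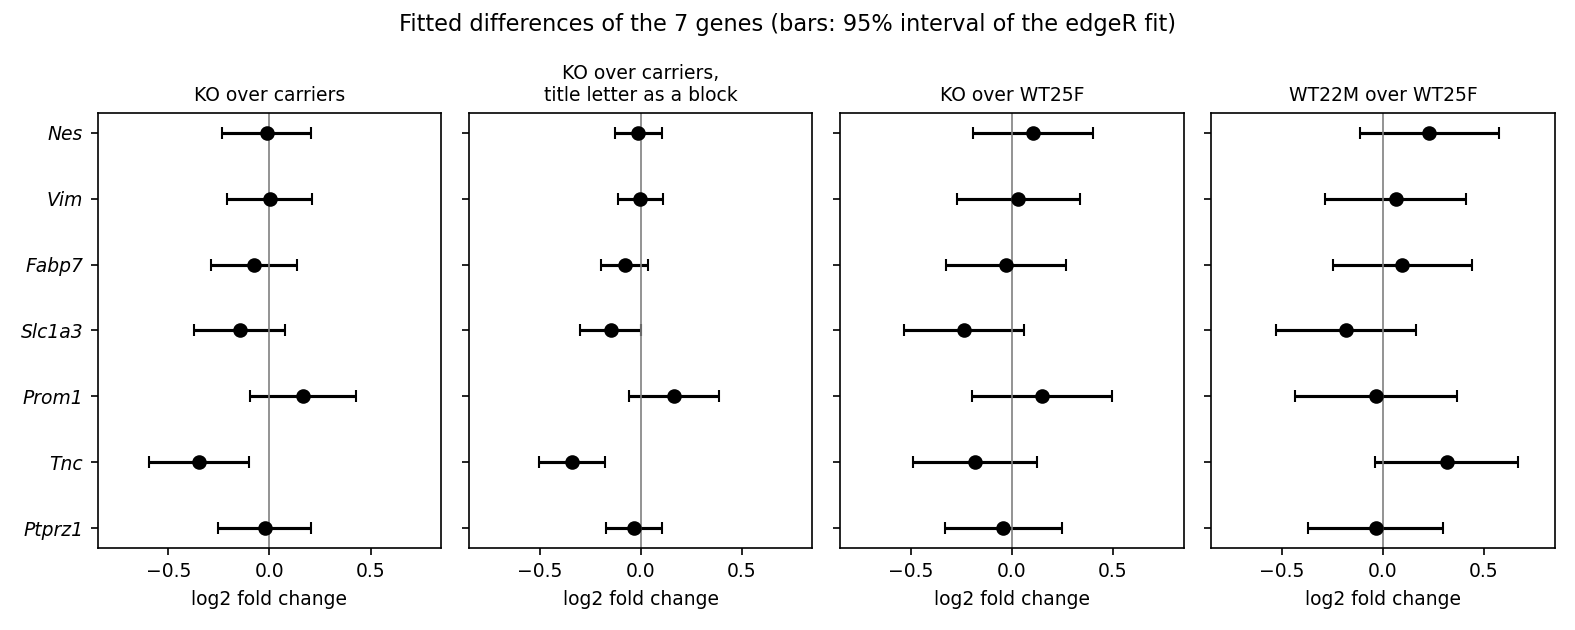
Fitted log2 fold change of each of the 7 genes (points) with its 95% interval from the edgeR fit (bars), for KO over carriers, the same with the title letter as a block, KO over WT25F, and WT22M over WT25F. The interval for Tnc excludes 0 in the first and second panels (-0.59 to -0.10 and -0.50 to -0.18) and includes it in the others.

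Setting each KO library against the carrier with the same title letter gave 2 ratios per gene with no replicate, whose intervals cover counting error only. For Tnc the log2 ratio was -0.60 for KO23M over WT22M (-0.71 to -0.48) but -0.08 for KO26F over WT25F (-0.20 to 0.03), so most of the difference came from the M pair, in which WT22M has conflicting labels. Slc1a3 was lower in both pairs by similar amounts, -0.13 for F (-0.23 to -0.03) and -0.16 for M (-0.26 to -0.06). Fabp7 was also lower in both, at -0.12 for F (-0.17 to -0.07) and -0.03 for M (-0.08 to 0.01). Prom1 was higher in both, at 0.12 for F (-0.06 to 0.30) and 0.22 for M (0.04 to 0.40). The remaining genes pointed in opposite directions: Ptprz1 was at 0.13 for F and -0.19 for M, Nes at 0.05 for F and -0.07 for M, and Vim at -0.06 for F and 0.06 for M.

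**Figure D3:**
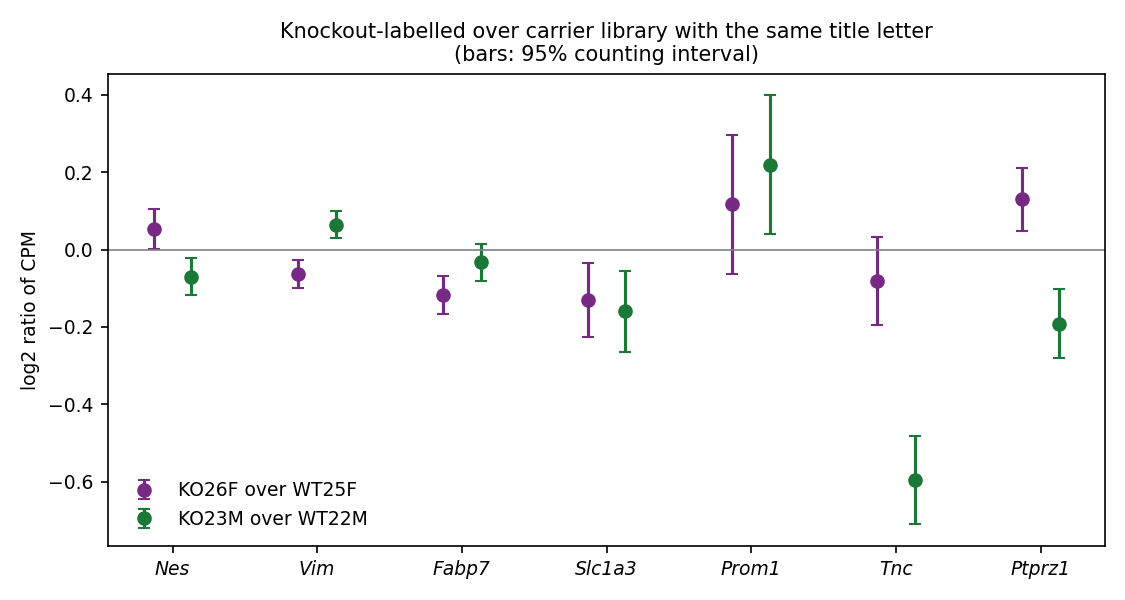
Log2 ratio of CPM for each of the 7 genes, KO26F over WT25F (left point of each pair) and KO23M over WT22M (right point), with bars for the 95% counting interval. Slc1a3 lies below 0 in both (-0.13 and -0.16), Ptprz1 lies on both sides of 0 (0.13 and -0.19), and Tnc is lowest in KO23M over WT22M (-0.60).

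Set by title letter instead of genotype, 5 of the 7 genes did not overlap between the M and F libraries, against 48.2% of all genes tested (29.6% higher in F), a grouping looked at after the values were seen. Nes averaged 379 ± 12.9 CPM in M libraries and 344 ± 8.99 in F libraries (SD, n = 2 each), Vim 753 ± 23.7 and 705 ± 22.0, and Fabp7 396 ± 6.44 and 369 ± 21.1, all higher in M. Slc1a3 averaged 83.04 ± 6.49 CPM in M libraries and 97.3 ± 6.18 in F libraries (SD, n = 2 each), and Ptprz1 114 ± 10.7 and 133 ± 8.46, both lower in M. Prom1 and Tnc, the genes that separated by genotype, overlapped between the letters. Each letter holds a KO library and a carrier, so any gene that separates by genotype must overlap between the letters. The overlap of Prom1 and Tnc is therefore not a separate result. In the edgeR fit with genotype beside the letter, 0 of 7 genes passed for the letter, where 666 genes or 4.10% were called, and 5 of 7 had an unadjusted p under 0.05, against 2807 of all genes or 17.3%. The lowest adjusted p was 0.0645 for Nes (log2 fold change, M over F, 0.17, SE 0.06), followed by 0.102 for Ptprz1 (-0.19, SE 0.07). The median size of the letter difference was 0.14 for the 7 genes and 0.14 for all genes tested, which were not matched for level. What the letter stands for is not stated in the labels.

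WT25F is the library that the deposited tables use as their common denominator, and setting both KO libraries against it alone asks how far the choice of carrier matters. Tnc then had a log2 fold change of -0.18 (95% interval -0.49 to 0.13), Slc1a3 of -0.24, Prom1 of 0.15 and Nes of 0.11. With edgeR 0 of 7 genes passed, where 56 genes or 0.345% were called, and 0 of 7 were under an unadjusted p of 0.05 (558 genes, 3.43%). DESeq2 also called 0 of 7, where 23 of 16252 genes were called. WT22M against WT25F compares single libraries, not genotypes. There the largest values were 0.31 for Tnc (95% interval -0.04 to 0.67) and 0.23 for Nes. With edgeR 0 of 7 genes passed, where 116 genes or 0.714% were called, and 0 of 7 had an unadjusted p under 0.05 (793 genes, 4.88%). DESeq2 called 0 of 7 there, and 33 of 16252 genes. These comparisons share WT25F, and in both the spread came from the KO libraries alone.

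In the authors' deposited table for each library against WT25F, 0 of the 7 genes carried the mark of significance, which takes an adjusted p under 0.05 and a log2 ratio of at least 1 in size, against a marked share of all genes of 1.96% for KO26F, 2.90% for KO23M and 3.62% for WT22M. Without the size limit, the authors' deposited table had an adjusted p under 0.05 for 4 of 7 genes of KO26F (13.7% of all genes), for 5 of 7 of KO23M (22.1%) and for 4 of 7 of WT22M (22.4%). These p-values set single libraries against each other. The 7 genes were among the 6968 of 16252 tested genes at or above the level of the lowest of them. The shares of all genes were not matched for level, so these counts are not read as an excess. For Slc1a3 the authors' deposited tables gave log2 ratios of -0.13 for KO26F, -0.37 for KO23M and -0.21 for WT22M, so the carrier WT22M was below WT25F too. Tnc in the authors' deposited tables was at -0.08 for KO26F, -0.31 for KO23M and 0.28 for WT22M.

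The genes around these 7 were read from 6 lists with 100 symbols, 97 of them in the files and 92 tested. Between KO libraries and carriers 0 of the 92 passed with edgeR, with or without the title letter block, or with DESeq2. Of all genes edgeR called 0.0615%, and 0.757% with the block, and DESeq2 called 11 of 16252. At an unadjusted edgeR p under 0.05 there were 5 of 92, against 2.86% of all genes. Since the lists were chosen with earlier results of these data known, this count is not read as an excess. The genes named from each list are the 3 with the smallest unadjusted edgeR p, a choice that favours groups that do not overlap. Groups did not overlap for 27.0% of all genes tested. Other radial glia genes were on the higher side for 14 of 20, with a median log2 fold change of 0.08. Sox9, a transcription factor that maintains neural stem cells, had 57.3 CPM in KO26F and 49.2 in KO23M against 44.1 in WT25F and 45.5 in WT22M. Ednrb, the endothelin B receptor, had 41.3 CPM in KO26F and 33.4 in KO23M against 31.2 in WT25F and 31.8 in WT22M. Both KO libraries were above both carriers for these genes, with log2 fold changes of 0.24 each. Without KO26F these were 0.15 for Sox9 and 0.10 for Ednrb, and without KO23M that of Ednrb was 0.37. Hopx, a homeodomain protein known from stem cells of several tissues, was on the other side at 4.03 CPM in KO26F and 4.16 in KO23M, against 4.85 in WT25F and 7.36 in WT22M (log2 fold change -0.58, SE 0.26). Its value was -0.23 without WT22M and -0.87 without WT25F.

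Among the other intermediate filament and lamin genes 8 of 14 were on the higher side (median 0.02). Gfap, the filament protein that astrocytes add later, was near the detection limit, with 3 counts in KO26F and 7 in KO23M against 18 in WT25F and 23 in WT22M. Its fitted log2 fold change was -2.05 (SE 0.62, edgeR adjusted p = 0.960), with an unadjusted value of 0.00316 from the same edgeR fit. The keratin gene Krt8 had a log2 fold change of 0.66 (SE 0.33) at 1.57 to 3.97 CPM, which was 0.38 without KO26F, 0.36 without WT22M and 1.05 without WT25F. Nefm, a neurofilament gene of neurons, was at -0.25 (SE 0.16), at -0.49 without WT22M, at -0.16 without KO23M and at 0.02 without WT25F, which at 77.0 CPM was the highest of the 4 libraries.

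Fatty acid binding and glutamate uptake genes were on the lower side for 7 of 8 tested, with a median of -0.07. Of these, 0 had an unadjusted edgeR p under 0.05. The glutamate transporter gene Slc1a6 had 3.70 CPM in KO26F and 4.32 in KO23M against 5.35 in WT25F and 5.23 in WT22M (log2 fold change -0.40, SE 0.25). Fabp3, the heart-type fatty acid binding protein, was at -0.26 (SE 0.16), at -0.10 without WT25F and -0.41 without WT22M. Slc1a4, a neutral amino acid exchanger, was at -0.08 (SE 0.10), at -0.03 without WT22M and -0.13 without WT25F.

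Tenascins and the ligands and receptors of tenascin-C and Ptprz1 were on the lower side for 12 of 17 (median -0.07). Itga9, an integrin subunit that binds tenascin-C, had 5.24 CPM in KO26F and 5.29 in KO23M, against 7.91 in WT25F and 6.91 in WT22M. Anxa2, a membrane-binding protein described as a tenascin-C receptor, had 42.8 CPM in KO26F and 44.7 in KO23M, against 53.9 in WT25F and 49.2 in WT22M. KO libraries were below carriers for both, with log2 fold changes of -0.49 (SE 0.22) and -0.24 (SE 0.11). Sdc4, the cell surface proteoglycan syndecan 4, was above at 5.13 CPM in KO26F and 4.65 in KO23M, against 3.51 in WT25F and 3.26 in WT22M (log2 fold change 0.53, SE 0.26).

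Matrix and basement membrane genes were split, with 7 of 18 on the higher side (median -0.04). The laminin chains Lama5 and Lama2 were at 0.26 (SE 0.15) and -0.28 (SE 0.21), and Lama5 was at 0.09 without WT25F and 0.44 without WT22M. Bcan, encoding the brain proteoglycan brevican, had 64.4 CPM in KO26F and 87.7 in KO23M, against 54.8 in WT25F and 69.7 in WT22M, so the groups overlapped (log2 fold change 0.29, SE 0.19). Its log2 fold change rested on KO23M: it was 0.02 without that library, 0.11 without WT25F, 0.49 without WT22M and 0.51 without KO26F. The value without KO26F passed (edgeR adjusted p = 0.0147), in a fit with KO23M alone on the KO side and the spread taken from the carriers. Of the apical surface and cilium genes 13 of 15 were on the higher side, with a median of 0.09, and 0 had an unadjusted edgeR p under 0.05. Crb2, an apical polarity gene, had 39.5 CPM in KO26F and 38.5 in KO23M against 32.2 in WT25F and 35.0 in WT22M (log2 fold change 0.21, SE 0.12), while Afdn, an adherens junction gene, and Prkci, encoding an atypical protein kinase C of the polarity complex, were both at 0.16 (SE 0.11 and 0.12). Leaving out 1 library put Crb2 at 0.13 without WT25F, Afdn at 0.04 without KO26F, 0.07 without WT22M, 0.25 without WT25F and 0.26 without KO23M, and Prkci at 0.08 without WT22M.

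**Figure D4:**
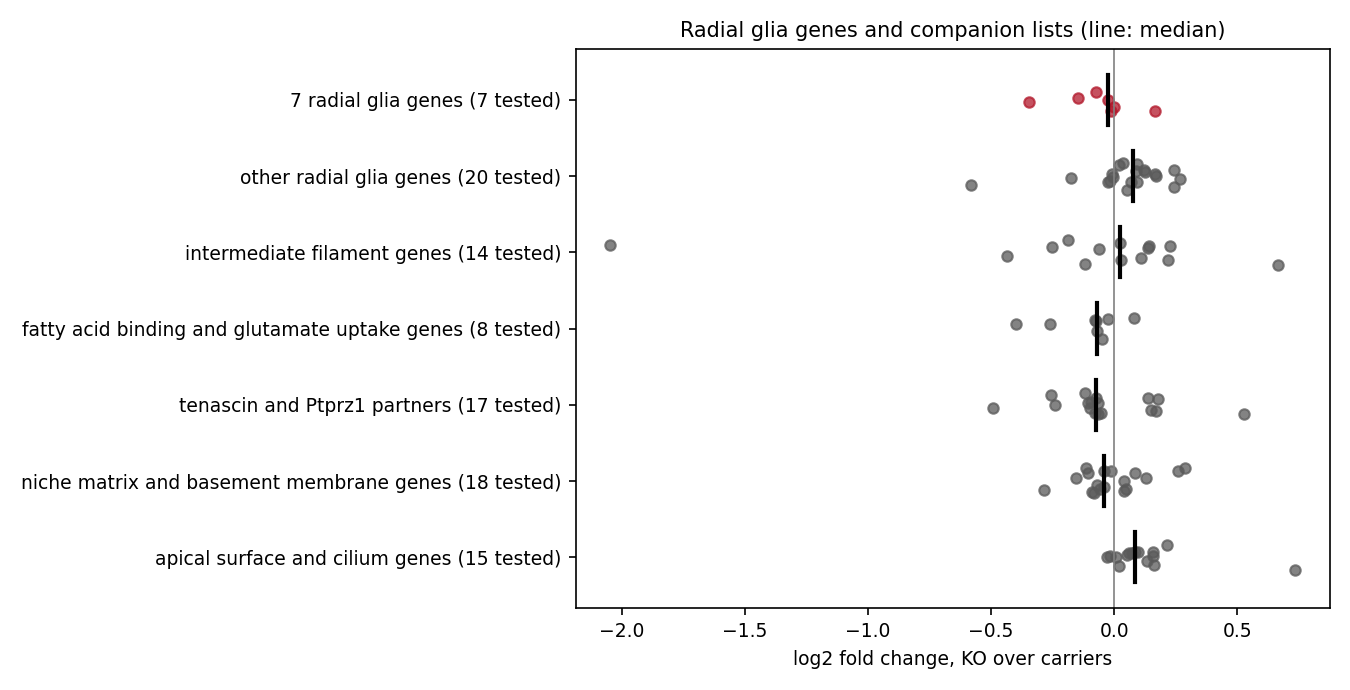
Fitted log2 fold change, KO over carriers, of each gene tested (points; small vertical shifts are only for visibility) in the group of 7 and in the 6 companion lists, with a vertical line at each median. Medians lie between -0.07 and 0.09, and the point at -2.05 is Gfap, which had 3 to 23 counts.

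Markers of other cells in the tissue also differed between libraries. Meninges and mesenchyme, whose cells can also express Tnc and Vim, had summed marker levels of 366 CPM in KO26F and 383 in KO23M against 456 in WT25F and 458 in WT22M, and 11 of its 12 markers were on the lower side (median -0.21). Endothelium and pericyte markers summed to 442 CPM in KO26F and 452 in KO23M, against 494 in WT25F and 499 in WT22M, with 12 of 13 on the lower side. In both lists the KO sums were below the carrier sums. KO and carrier sums were also apart for dividing cell, intermediate progenitor, neuron, ventral GABAergic and microglia markers. A sum can hide differences of single markers, such as Col1a1 of the meninges list (89.2 CPM in WT25F and 105 in WT22M). The part of these cells in the Tnc values was not tested. Dividing cell markers summed to 1125 and 1122 CPM in KO26F and KO23M, against 983 and 978 in WT25F and WT22M, with 10 of 10 on the higher side, and intermediate progenitor markers to 1005 and 995 against 856 and 915, with 8 of 8 on the higher side. Neuron markers summed to 7274 CPM in KO26F and 7281 in KO23M, against 7667 in WT25F and 7540 in WT22M, with 8 of 10 on the lower side. These sums were 4.23 times the sum of the 7 genes in KO26F and 4.04 times in KO23M, against 4.34 in WT25F and 4.09 in WT22M. Ventral GABAergic markers summed to 1357 CPM in KO26F and 1394 in KO23M against 1218 in WT25F and 1167 in WT22M, with 10 of 10 on the higher side (median 0.23). Microglia and macrophage markers, at 93.9 CPM in KO26F and 97.8 in KO23M against 104 in WT25F and 121 in WT22M, were lower in both KO libraries and highest in WT22M. Diencephalon markers set WT25F apart, at 43.4 CPM in KO26F and 40.2 in KO23M against 99.7 in WT25F and 39.0 in WT22M, with 6 of 6 tested on the lower side. The part of these cells in the levels of the 7 genes was not tested. Choroid plexus and hem markers set WT22M apart, at 1033 CPM in KO26F and 813 in KO23M against 977 in WT25F and 229 in WT22M, and its part in the WT22M values was not tested. Over all 11 marker lists examined, no marker was at 0 in any library. Between KO libraries and carriers edgeR and DESeq2 each called 0 of the 101 markers tested. Of all 16252 genes edgeR called 10 and DESeq2 11. At an unadjusted edgeR p under 0.05 there were 20 of 101 markers, against 2.86% of all genes tested. The lists were chosen with earlier results of these data known, and markers of a cell type can vary together. Cspg4 is in both the pericyte and the oligodendrocyte precursor list and is counted in each. The count of markers is therefore not read as an excess.

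Since Tnc had the widest range, the genes nearest to its profile were taken, by the root mean square distance of log2 CPM centred over the 4 libraries, among 10709 other genes whose mean log2 CPM was 3 or more. The 5 nearest were St6galnac5, a sialyltransferase gene (distance 0.046), Cyb561a3, encoding a cytochrome b561 family protein (0.046), Col1a1, the type I collagen alpha 1 chain (0.055), Slc35f2, a solute carrier (0.059), and P4ha2, a subunit of the prolyl hydroxylase that modifies collagen (0.061). St6galnac5 had 22.2 CPM in KO26F and 19.1 in KO23M, against 25.5 in WT25F and 29.2 in WT22M. Col1a1, which is also in the meninges and mesenchyme list, had 78.3 CPM in KO26F and 73.9 in KO23M, against 89.2 in WT25F and 105 in WT22M. For Slc35f2 the groups overlapped, at 9.71 CPM in KO26F and 7.78 in KO23M against 9.47 in WT25F and 11.2 in WT22M. These genes were picked for their likeness over only 4 libraries, so their agreement with Tnc is a description. Their log2 fold changes between KO libraries and carriers ran from -0.44 (Cyb561a3) to -0.25 (Slc35f2), or from -0.29 (St6galnac5) to -0.10 (Slc35f2) without WT22M. With edgeR 0 of 5 passed (lowest adjusted p = 0.960, Col1a1). With the title letter as a block, where 0.757% of all genes were called, Col1a1 passed (log2 fold change -0.35, edgeR adjusted p = 0.00213). Col1a1 was picked for its likeness to Tnc, which passed in that same fit, so this is not a separate result.

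**Figure D5:**
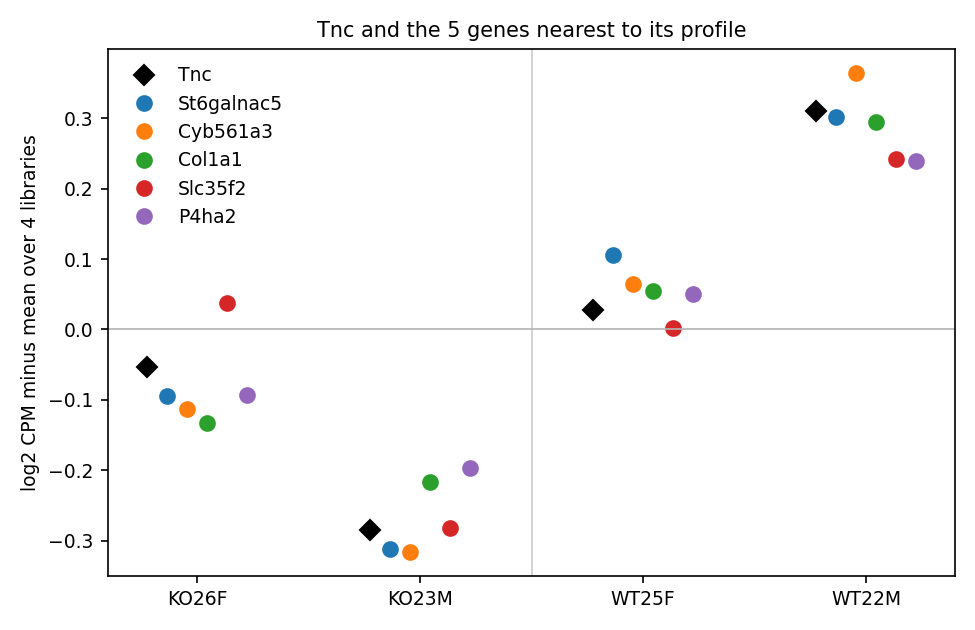
Log2 CPM minus its mean over the 4 libraries for Tnc (black diamonds) and the 5 genes nearest to its profile (coloured points), by library. All 6 are lowest in KO23M and highest in WT22M; Slc35f2 in KO26F, at 9.71 CPM, lies above its value in WT25F, at 9.47 CPM.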

How the data were processed

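For KO26F, KO23M and WT22M the authors deposited a table each, set against WT25F, with raw counts per gene, CPM values, a log2 ratio of CPM, and p-values from a test not given in the sources used here. Bowtie2 2.2.3, TopHat2 2.0.12, HTSeq 0.6.0 and the build mm9 are named in the submitters' processing notes, but the gene positions in the files match GRCm38 and are given as such. Per the labels' protocols, total RNA was extracted with Trizol and prepared with a TruSeq kit.

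The tables were joined by gene identifier, and genes that a table did not list were given a count of 0. CPM is the deposited count over the joined library total. Counts were tested with edgeR 4.0.16 (TMM, robust quasi-likelihood fit, filterByExpr), which left 16252 genes, adjusted together. The comparisons with WT25F alone came from a fit of 3 groups. The alternatives were RLE factors, DESeq2 1.42.0, other filters, the title letter as a block, and leaving out each library. Named genes were the 7 members, the 3 with the smallest p in each list, and the 5 profiles nearest to the most variable member. The members and lists were chosen with earlier results of these data known. Symbols for checking the tissue, and the comparison of title letters, were chosen after values were seen.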

Additional observations from a re-analysis of the deposited data

Results flagged for a closer look

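For 3 genes the KO over carrier ratio pointed one way in the libraries titled F and the other way in those titled M, and this difference between pairs was not tested, since each ratio sets 1 library against 1. For Ptprz1 the log2 ratio was 0.13 for KO26F over WT25F and -0.19 for KO23M over WT22M, a difference of 0.32. For Nes it was 0.05 for KO26F over WT25F and -0.07 for KO23M over WT22M, a difference of 0.12. For Vim it was -0.06 for KO26F over WT25F and 0.06 for KO23M over WT22M, a difference of -0.13.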

How the results depend on the processing

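Of 63 values of the 7 genes between KO libraries and carriers under the alternatives, 52 kept their direction and their side of the threshold, 10 changed sign and 1, Tnc with the title letter as a block (-0.34), now passed. Signs changed for Vim, from a main value of 0.0005, with RLE factors (-0.0016), no filter (-0.0031), the block (-0.0027) and DESeq2 (-0.0016), and without 1 library for Nes (-0.13 to 0.11; 0.04 without KO26F and 0.11 without WT22M), Vim (-0.11 to 0.10; -0.11 without KO23M and -0.04 without WT25F), Fabp7 (-0.17 to 0.013; 0.013 without KO26F), Ptprz1 (-0.21 to 0.14; 0.14 without KO23M) and Nefm (-0.49 to 0.021; 0.021 without WT25F). Genes called between KO libraries and carriers went from 10 to 123 with the block and to between 48 and 100 without 1 library. Genes called for KO against WT25F went from 56 to 0 with no filter (353 at an unadjusted edgeR p under 0.05), 6 with the spread of the 2-arm fit and 23 with DESeq2, and for WT22M against WT25F from 116 to 0 with no filter (520 unadjusted), 0 with the spread of the 2-arm fit (347 unadjusted) and 33 with DESeq2. The cause of these shifts was not tested. In these comparisons with WT25F, all 42 and 35 values of the 7 genes kept direction and side of the threshold. The range of the adjusted p of Tnc over its alternatives was 0.0101 to 0.99996. The labels give the groups no shared replicate numbers, so the pairing by title letter was the paired fit that was run. With 2 libraries per group, changes of modest size may be missed. Tnc, at 0.786-fold, did not pass the threshold, which does not decide whether it changed.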
